A study of Danio rerio with 15 samples.

Results

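The 8 zebrafish kept on the standard diet, which differ in their replicate marks, were compared as 2 sets of marks. Marks B and C made 4 fish (scaf1-/- B, scaf1-/- C, scaf1+/+ B and scaf1+/+ C), and marks 6, 7 and A made the other 4 (scaf1-/- 6, scaf1-/- A, scaf1+/+ 6 and scaf1+/+ 7), so each set held 2 fish of each genotype. The sets are 8 of the 15 fish of the series, and the other 7 fish, on the double diet, were placed along the difference between them. The sets were chosen from the expression values of these same 8 fish. Every value of the B and C set against the 6, 7 and A set is therefore a description. Numbers of transcripts called for that contrast, or for its difference between genotypes, are given only as counts from which nothing is read. The tests below concern genotype, with a mark term chosen from these same fish, and the double diet fish.

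All 15 libraries were skeletal muscle of adult females of the scaf1 Δ1 line, 7 months old when a regime of 6 weeks began, and each library was 1 fish. The scaf1-/- fish are called KO and the scaf1+/+ fish WT in the labels, and both genotypes received the same feeds. The labels give gemma-300, 3 times a day on the standard diet and 5 times a day on the double diet, while by the study's methods 1 of the daily weekday feeds was artemia and weekends had fewer feeds. The standard diet group held 4 fish of each genotype, and the double diet group 4 scaf1-/- and 3 scaf1+/+ animals. The labels do not say what the marks 2, 3, 4, 6, 7, A, B and C stand for (a tank, a clutch, a day or only a name), and all libraries carry the same lane number. Nothing in the labels says that same-marked fish share a tank or a clutch. By the study's methods, several fish shared a tank and were assigned to a diet together, but the labels name no tank. The p-values take each fish as independent and measure the spread between these fish, from which a shared tank cannot be told apart.

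Scaf1, the product of cox7a2l, is known as a factor that joins respiratory complex III to complex IV in the supercomplexes of the inner mitochondrial membrane. Skeletal muscle devotes a large part of its messenger RNA to a few contractile, calcium handling and energy supply proteins, and the most abundant transcripts of a muscle library usually come from them. When these take a larger share of the reads, all other transcripts take a smaller one, so relative abundance depends on the scaling. In whole tissue, fewer cells of a type and less RNA per cell cannot be told apart. The files list transcript identifiers with no gene beside them, and no table used here pairs them. Transcripts are therefore described by identifier, length and abundance, and neither scaf1 itself nor markers of muscle or of another tissue could be read. No transcript sequence was used.

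The total estimated count per fish ran from 4045429 to 15844710. The lowest total belonged to scaf1+/+ C, in which 15655 transcripts had a count against 27748 to 33493 in the other fish of the B and C set. The 6, 7 and A set had 34455 to 35800 transcripts with a count and totals from 11982620 to 15844710. The double diet fish had 29270 to 33902, and 6 of the 7 lay inside the range of the B and C set. Transcripts detected therefore moved with the mark set, and in scaf1+/+ C also with depth; their part in the differences below was not tested.

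Of 26970 transcripts that passed the filter on low counts, 1482 were apart in the upward direction, which means that all 4 B and C fish lay above all 4 of the 6, 7 and A fish and that the means differed by at least 1 on the log2(CPM + 1) scale (CPM, counts scaled to a common library size by TMM). These were 5.49% of the transcripts tested. In the downward direction 3779 transcripts were apart, or 14.0% of those tested. The sets did not overlap in either direction, at any size of difference, for 25.8% of the transcripts, of which 620 higher and 1076 lower ones fell short of the limit of 1. The median difference over all transcripts tested was -0.27 by TMM, so that the median of the higher list stood 1.79 above it and that of the lower list -1.50 from it. The same median was -0.39 with median-ratio size factors, -0.89 with library totals alone and -0.92 in TPM. TPM also divides by transcript length, which was the same for all 15 fish.

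Since the other 3 scalings each move the bulk of transcripts further down, all 3779 transcripts of the lower list stayed below 0 by construction. For the higher list, 1482 transcripts lay above 0 with median-ratio size factors, 1390 with library totals alone, and 920, or 62.1%, in TPM. Counted afresh in TPM, 56 transcripts were apart upward and 8877 downward. The upward difference is thus one relative to the bulk of transcripts, and it is stated below as levels by TMM unless shares of the raw counts are given.

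The most abundant transcripts of muscle stood on the higher side. Abundance was ranked by the mean CPM of these same 8 fish, so a transcript gained rank by being high in B and C. The tilt below is therefore in part built in. Among the 100 most abundant transcripts of the 8 fish, 52 were apart upward and 0 downward. Among the next 200 the counts were 97 upward and 15 downward, and among the 700 after these, down to rank 1000, they were 173 and 69. The balance turned further down the order, with 274 upward and 231 downward among the following 2000 transcripts, and 489 and 1427 among the 7000 that end at rank 10000. Of the 16970 less abundant transcripts, 397 were apart upward and 2037 downward. Transcripts of the higher list had a median length of 1868 bases and those of the lower list 2354 bases, beside 2116 bases for all transcripts tested.

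Single abundant transcripts show the size of this. The most abundant one, of 811 bases, stood at 10056 CPM in scaf1-/- 6, 14433 in scaf1-/- A, 11051 in scaf1+/+ 6 and 7995 in scaf1+/+ 7. It stood at 68925 CPM in scaf1-/- B, 63711 in scaf1-/- C, 30329 in scaf1+/+ B and 52389 in scaf1+/+ C. Both scaf1-/- fish of the B and C set were the highest of the 8, and scaf1+/+ B was the lowest of its set. The transcript of the third rank, of 5906 bases, ran from 7032 to 9344 CPM in the 6, 7 and A set, and reached 65650 in scaf1-/- B and 86546 in scaf1-/- C but 19783 in scaf1+/+ B and 13844 in scaf1+/+ C. Its upward difference was therefore mostly carried by the scaf1-/- fish. The second most abundant transcript, of 1551 bases, was not apart, since scaf1-/- A had 36740 CPM and scaf1+/+ B 24674.

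The raw shares of the counts, which no scaling enters, showed the same concentration. The 100 most abundant transcripts of each fish held 62.8% ± 5.75 (SD, n = 4) of its counts in the B and C set and 41.0% ± 5.03 (SD, n = 4) in the 6, 7 and A set. The 4 fish of the first set ran from 54.3% in scaf1+/+ B to 66.7% in scaf1-/- C, and those of the second from 35.3% in scaf1+/+ 7 to 47.3% in scaf1-/- A, without overlap. In the 7 double diet fish the share was 56.3% ± 6.68 (SD, n = 7), from 44.0% in scaf1+/+ 2 to 64.1% in scaf1-/- 2.

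**Figure D1:**
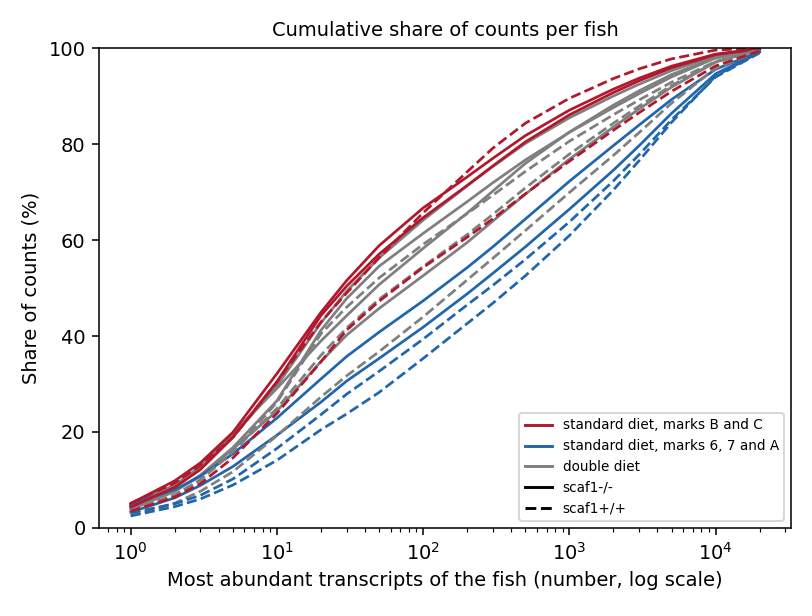
Share of a fish's counts (%, vertical axis) held by its most abundant transcripts (number of transcripts, log scale, horizontal axis), 1 line per fish, red for marks B and C, blue for marks 6, 7 and A, grey for the double diet, solid for scaf1-/- and dashed for scaf1+/+. At 100 transcripts the red lines lie between 54.3% and 66.7% and the blue lines between 35.3% and 47.3%, with the grey lines from 44.0% to 64.1%.

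The transcripts of the higher list took 36.7% to 48.5% of the counts in the B and C set and 20.2% to 27.5% in the 6, 7 and A set. The lower list took 0.484% to 4.25% in the first set and 7.84% to 22.2% in the second. Of its 3779 transcripts, 959 had a count of 0 in scaf1-/- B and 966 in scaf1-/- C, 336 in scaf1+/+ B, and 2323 in scaf1+/+ C. The last number is read from the shallowest library, where 3 counts, the most that a count of 0 allows, amounted to 1.31 CPM, beside 0.225 to 0.366 CPM in the other 3 fish of the set (counting error only). No transcript of the lower list was at 0 in a fish of the 6, 7 and A set, as the choice of the list requires.

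4 transcripts with a mean of at least 20 CPM and a very large difference are given in full, 2 in each direction. ENSDART00000131131.4, of 1714 bases, had a count of 0 in all 4 fish of the 6, 7 and A set. It stood at 349 CPM in scaf1-/- B, 246 in scaf1-/- C, 28.1 in scaf1+/+ B and 142 in scaf1+/+ C. The mean of the B and C set was 191 ± 138 CPM (SD, n = 4). This was about 1322-fold the mean of 0.145 CPM that 3 counts per library would give in the 6, 7 and A set. That bound covers counting error only, and how the estimated counts were shared among similar transcripts was not examined. On the double diet the transcript was present in every fish, at 219, 217, 150 and 152 CPM in scaf1-/- 2, 3, 6 and 7 and at 58.4, 104 and 174 CPM in scaf1+/+ 2, 3 and 4. All 7 double diet fish therefore stood on the side of B and C for ENSDART00000131131.4, scaf1+/+ 2 among them.

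ENSDART00000135912.3, of 3205 bases, was at 0.040 CPM in scaf1-/- 6, 0 in scaf1-/- A, 0 in scaf1+/+ 6 and 0.17 in scaf1+/+ 7. It reached 36.1 CPM in scaf1-/- B, 44.3 in scaf1-/- C, 5.48 in scaf1+/+ B and 152 in scaf1+/+ C, where this rested on 348 counts. Its double diet values ran from 2.37 CPM in scaf1-/- 7 to 57.2 CPM in scaf1-/- 2, with a median of 18.5 CPM over the 7 fish, all above the 6, 7 and A set.

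ENSDART00000142733.3, of 2791 bases, was on the opposite side, at 580 CPM in scaf1-/- 6, 250 in scaf1-/- A, 807 in scaf1+/+ 6 and 998 in scaf1+/+ 7. It had a count of 0 in scaf1-/- B, scaf1-/- C and scaf1+/+ C, and 113 CPM in scaf1+/+ B. On the double diet the genotypes were far apart for ENSDART00000142733.3, with 0.40, 2.70, 0.20 and 0 CPM in scaf1-/- 2, 3, 6 and 7 and 710, 134 and 250 CPM in scaf1+/+ 2, 3 and 4; this difference was seen in the values first and was not tested.

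ENSDART00000046454.8, of 4522 bases, had nearly the same levels on the standard diet, at 571 CPM in scaf1-/- 6, 247 in scaf1-/- A, 849 in scaf1+/+ 6 and 834 in scaf1+/+ 7, with 0 in scaf1-/- B, scaf1-/- C and scaf1+/+ C and 123 CPM in scaf1+/+ B. On the double diet ENSDART00000046454.8 stood at 69.3, 180, 222 and 4.17 CPM in scaf1-/- 2, 3, 6 and 7 and at 661, 177 and 237 CPM in scaf1+/+ 2, 3 and 4, so that here the genotypes overlapped. For both lower transcripts scaf1+/+ B was not near 0 like its set, but at less than the lowest fish of the other set.

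**Figure D2:**
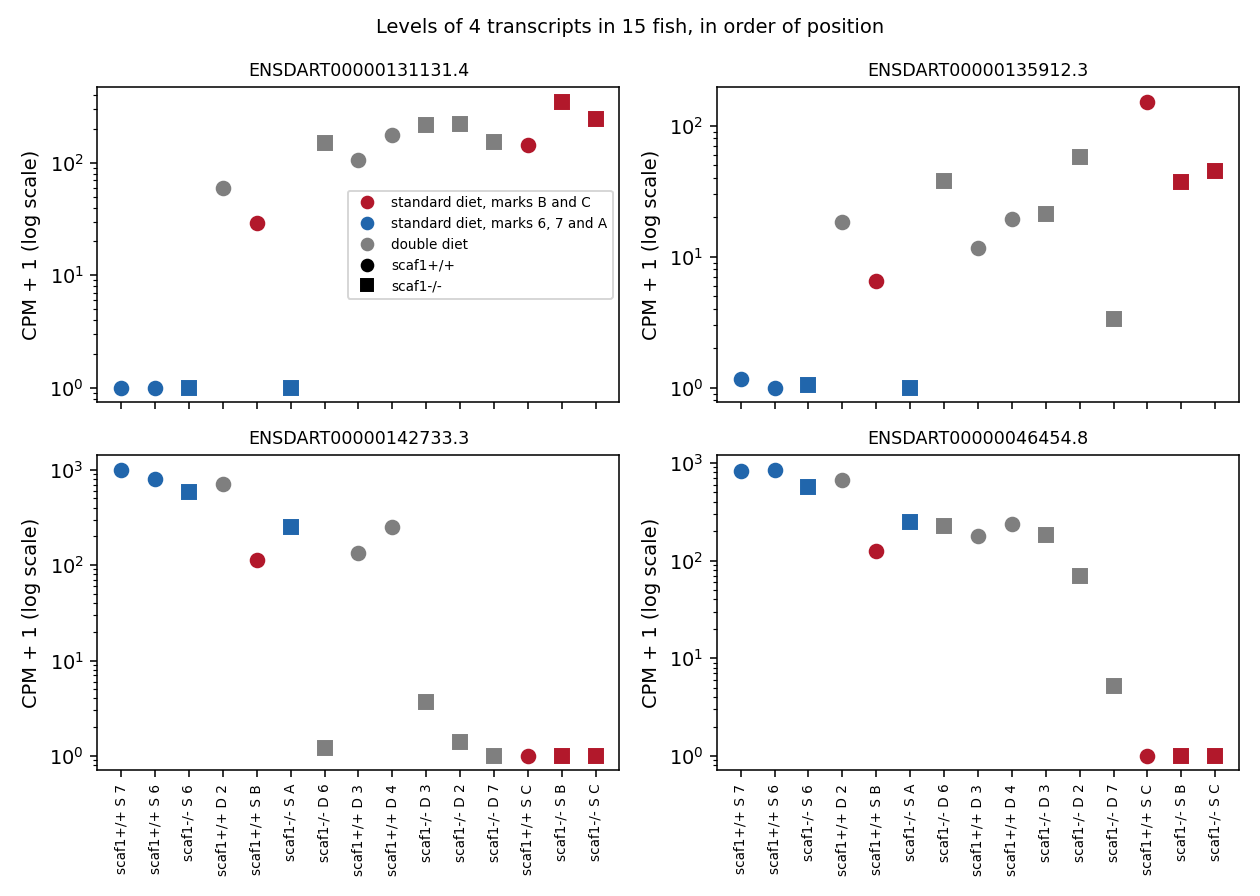
Level of 4 transcripts (CPM + 1, log scale, vertical axis) in the 15 fish (horizontal axis, in order of position along the difference, S standard and D double diet), squares scaf1-/- and circles scaf1+/+, red for marks B and C, blue for marks 6, 7 and A, grey for the double diet. ENSDART00000131131.4 is at 0 CPM only in the 4 blue fish, while ENSDART00000142733.3 and ENSDART00000046454.8 are at 0 in 3 of the 4 red fish and at 113 and 123 CPM in scaf1+/+ B.

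Each fish was then given a position, the mean level of the higher list minus that of the lower list, scaled so that the mean of the 6, 7 and A set is 0 and the mean of the B and C set is 1. For a standard diet fish, the lists and the scale were made again without that fish, so that its own values did not place it. On this scale scaf1+/+ 7 stood at -0.15, scaf1+/+ 6 at -0.080, scaf1-/- 6 at 0.11 and scaf1-/- A at 0.38. In the other set scaf1+/+ C stood at 0.97, scaf1-/- B at 1.002 and scaf1-/- C at 1.01, but scaf1+/+ B at 0.35. Placed in this way, 3 fish lay near 1, 3 near 0, and 1 fish of each set lay between. Each of the 8 fish was placed on its own lists and scale, so these positions are not read on a common axis. With lists made on all 8 fish, which cannot overlap by construction, scaf1-/- A stood at 0.20 and scaf1+/+ B at 0.55. Neither placing can decide whether the 8 fish form 2 separate states.

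**Figure D3:**
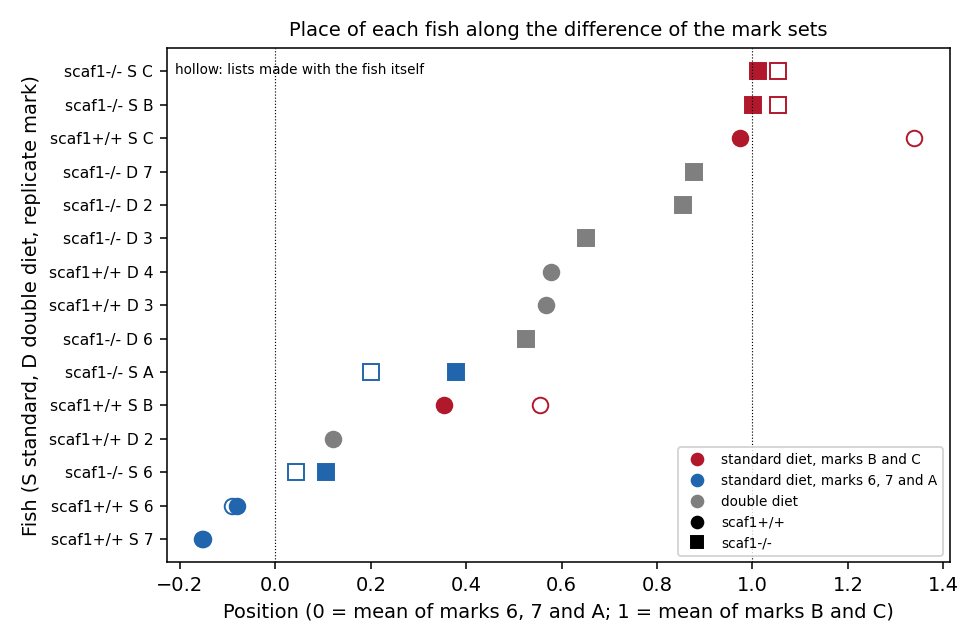
Position of each fish (horizontal axis, no unit, 0 for the mean of marks 6, 7 and A and 1 for the mean of marks B and C), 1 line per fish (S standard and D double diet), squares scaf1-/- and circles scaf1+/+; filled symbols use lists made without the fish and hollow ones lists made with it. The filled symbols of scaf1+/+ B (0.35) and scaf1-/- A (0.38) are each on their own lists and scale, so their order is not read. Of the 7 double diet fish (grey), 6 lie between 0.53 and 0.88.

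Correlations between whole profiles of log2(CPM + 1) over the 26970 transcripts placed the same fish apart (transcripts are not independent, and no test was made). The closest pairs were scaf1+/+ 6 with scaf1+/+ 7 (r = 0.95) and scaf1-/- B with scaf1-/- C (r = 0.94). The scaf1+/+ B fish had a mean r of 0.80 with the rest of its own set and 0.88 with the 6, 7 and A set. The first mean was lowered by the shallow scaf1+/+ C (r = 0.69), while r was 0.86 with scaf1-/- B and 0.86 with scaf1-/- C. In the other set r was 0.90 with scaf1-/- 6, 0.92 with scaf1-/- A, 0.86 with scaf1+/+ 6 and 0.84 with scaf1+/+ 7. The nearest fish to scaf1+/+ B was scaf1+/+ 3 of the double diet (r = 0.92). The scaf1+/+ C fish was nearest to scaf1-/- 2 of the double diet, with r = 0.78, the lowest nearest value of the 15 and in the shallowest library.

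Without scaf1+/+ C, 2124 transcripts were apart upward and 3437 downward. The higher lists with and without this fish shared 1241 transcripts, 83.7% of the first and 58.4% of the second, and the lower lists shared 3241, 85.8% and 94.3%. Leaving out either of the intermediate fish widened the gap further. Without scaf1+/+ B, 8672 transcripts were apart in either direction, and without scaf1-/- A 7954, beside 5261 with all 8 fish. The number apart thus turned on the 2 intermediate fish more than on the shallow one. This follows in part from the rule, since leaving out the fish nearest the other set relaxes the demand for no overlap most.

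As a count for the same contrast, the additive edgeR quasi-likelihood fit with genotype called 0 transcripts between the mark sets (Benjamini-Hochberg adjusted, with a fold of at least 1 on the log2 scale), although 8452 had an unadjusted p under 0.05. The smallest adjusted p of that edgeR quasi-likelihood fit was 0.0505, so the count of 0 lay just past the threshold of 0.05. The DESeq2 number was 8055 of 30516 transcripts tested. Of 26970 transcripts, edgeR called 4737 without scaf1+/+ C and 5251 without scaf1+/+ B. Nothing is read from these counts, since the sets were chosen on this contrast.

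A further test asked whether scaf1-/- and scaf1+/+ fish differed once the mark set was a term. Genotype is not the contrast on which the sets were chosen, but the mark term was chosen from the expression of these same fish. The term can therefore take up spread between fish, and p-values from a fit with it can be too small. By the edgeR quasi-likelihood test 0 of 26970 transcripts (0%) passed the adjusted threshold, and 1890 had an unadjusted p under 0.05. With DESeq2 the number was 227 of 26881 transcripts tested (53 with the higher level in scaf1-/- and 174 with the lower). Since that fit holds the mark term too, the 227 are given as a count and not read as a genotype difference. The call therefore differed between the tools, which also did not test the same number of transcripts. Without the mark term, in a fit that the choice of sets does not enter, edgeR called 0 as well. There 745 had an unadjusted p under 0.05, beside 1890 with the term. A cut at 0.05 passes a share of about 0.05 of all transcripts by chance alone, so neither number is read as a difference.

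The difference between the mark sets was also described within each genotype, on the same 8 fish that chose the sets. Among scaf1-/- fish the higher list had a median difference of 1.48 and the lower list -1.54, and among scaf1+/+ fish these were 1.64 and -2.03. The scaf1+/+ values joined unlike fish, since scaf1+/+ B alone gave 1.05 and -1.28, and scaf1+/+ C alone 2.19 and -2.75. As a count only, edgeR called 0 of 26970 transcripts (0%) for the interaction of genotype and mark set. An unadjusted p under 0.05 was found for 1525 of the 26970, where chance alone passes a share of about 0.05, and nothing is read from it. The DESeq2 number was 244 of 25064 transcripts tested. Without scaf1+/+ B, edgeR called 2750, of which 2159 had the more positive difference in scaf1-/- and 591 the more negative, with scaf1+/+ C as the only scaf1+/+ fish of its set and assumed to vary like the others. With the replicate mark as a block, edgeR called 15.

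The double diet fish took no part in the choice of the sets. Among scaf1-/- fish, replicate 2 stood at position 0.85, replicate 3 at 0.65, replicate 6 at 0.53 and replicate 7 at 0.88. Among scaf1+/+ fish, replicate 2 stood at 0.12, replicate 3 at 0.57 and replicate 4 at 0.58. So all 7 fish lay between the means of the sets, 6 of them from 0.53 to 0.88. Those means are of the same fish on which the lists were chosen, and that choice draws the means apart. A place between them is therefore in part built in for fish outside the choice. These positions use the lists made on all 8 standard diet fish. On those lists the B and C fish, which helped to choose them, ran from 0.55 in scaf1+/+ B to 1.34 in the shallow scaf1+/+ C. The double diet fish scaf1-/- 6 lay just below that range. The 6, 7 and A fish ran from -0.15 in scaf1+/+ 7 to 0.20 in scaf1-/- A, and scaf1+/+ 2 lay within that range. The scaf1-/- mean was higher by 0.31, which an exact permutation test did not tell from the spread between fish (two-sided p = 0.114 over 35 splits, of which the smallest possible p is 0.0286; n = 4 and 3). Without scaf1+/+ 2 the difference was 0.15 (exact permutation p = 0.267). The positions were also taken with lists and scale made without scaf1+/+ C. They were then 0.89, 0.64, 0.50 and 0.96 in scaf1-/- 2, 3, 6 and 7. In scaf1+/+ 2, 3 and 4 they were 0.12, 0.64 and 0.61. With scaf1+/+ B at 0.63, both scaf1-/- 6 and scaf1+/+ 4 lay below it, as did scaf1+/+ 2. The difference by genotype was then 0.29 (exact permutation p = 0.2). Position is thus a value in which these 2 genotypes overlapped, scaf1-/- 6 lying below scaf1+/+ 3 and 4.

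The double diet fish were also placed transcript by transcript. A transcript was counted as like B and C where the fish reached the range of those 4 fish or went beyond it. In scaf1-/- 2 this held for 87.0% of the higher list and 78.1% of the lower list, and in scaf1-/- 7 for 78.1% and 86.2%. In scaf1-/- 3 and 6 it held for 74.6% and 58.5% of the higher list, but for 46.1% and 39.7% of the lower list. In scaf1+/+ 3 and 4 the values were 68.0% and 67.7% of the higher list, and 44.9% and 44.6% of the lower. In scaf1+/+ 2 they were 17.3% and 10.9%, while 60.3% of the higher list and 76.1% of the lower lay in or beyond the range of the 6, 7 and A fish. In 4 of the 7 fish, the higher list was thus further along than the lower list by over 15 percentage points. This was read by TMM only. How far each list is along can differ with the scaling, which was not tested here.

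The mean levels of the 2 lists ran against each other over the 7 double diet fish. Pearson's r was -0.88 (exact permutation p = 0.0161, two-sided, adjusted p = 0.0241) and Spearman's rho -0.96 (exact permutation p = 0.00278, adjusted p = 0.00833), with p-values adjusted by Benjamini-Hochberg over 3 tests on these fish. Without the 2 fish farthest from the median of the higher list, scaf1+/+ 2 and scaf1-/- 2, r was -0.72 over 5 fish (exact permutation p = 0.00833, the smallest that 5 fish allow). Without scaf1+/+ 2 alone r was -0.68 and the call was lost (exact permutation p = 0.103). Among the 4 scaf1-/- fish r was -0.58, and the 3 scaf1+/+ fish are too few for a value. Both levels are relative abundances of the same libraries, so a rise in one list lowers the other in part by construction.

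**Figure D4:**
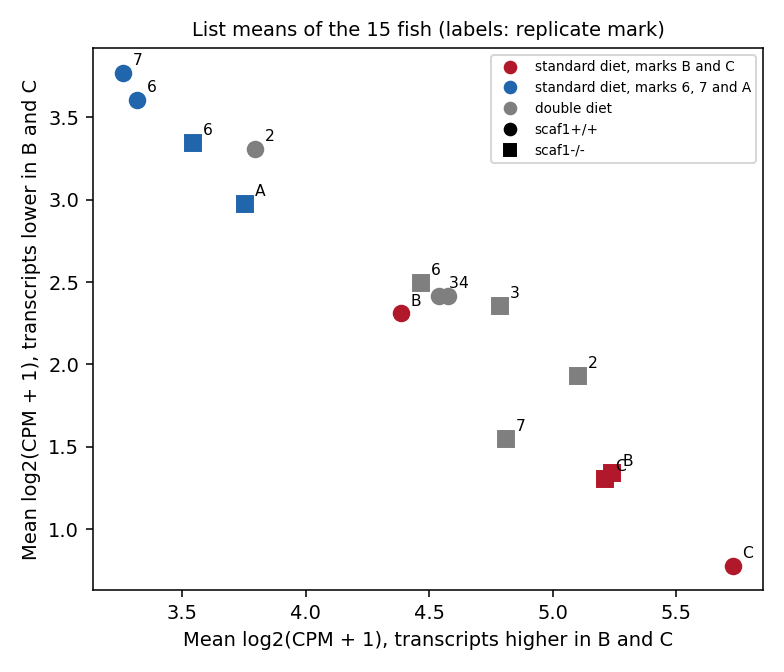
Mean log2(CPM + 1) of the 3779 transcripts lower in B and C (vertical axis) against that of the 1482 higher ones (horizontal axis), 1 point per fish with its replicate mark, squares scaf1-/- and circles scaf1+/+, red for marks B and C, blue for marks 6, 7 and A, grey for the double diet. The red and blue points were used to choose the lists; the 7 grey points, which were not, follow a falling line (r = -0.88) on which scaf1+/+ 2 lies among the blue points.

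A stricter set, formed on the 4 scaf1-/- standard diet fish alone after the values were seen, was then read in the other 11 fish. It held 65 transcripts with at most 1 CPM in both scaf1-/- B and C and at least 20 CPM in both scaf1-/- 6 and A. In scaf1+/+ 6 and 7 their median ratio to the mean of scaf1-/- 6 and A was 1.46 and 1.85. In scaf1+/+ B it was 0.399 (quartiles 0.256 and 0.648), and in scaf1+/+ C it was 0, with 45 of the 65 at or below 1 CPM. On the double diet the ratios were 0.169, 0.438, 0.533 and 0.0102 in scaf1-/- 2, 3, 6 and 7 and 1.39, 0.430 and 0.439 in scaf1+/+ 2, 3 and 4. So scaf1-/- 7 was the double diet fish in which these transcripts were nearly absent, and scaf1+/+ 2 the one in which they were as high as in the 6, 7 and A fish. A level near 0.4 of the reference was found in 4 fish: scaf1+/+ B, scaf1-/- 3 and scaf1+/+ 3 and 4.

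In the other direction, 162 transcripts had at least 20 CPM in both scaf1-/- B and C and at least 4 times the level of both scaf1-/- 6 and A, where each was detected. Their median ratio was 8.07 and 8.09 in scaf1-/- B and C, which took part in the choice. It was 0.775 and 0.820 in scaf1+/+ 6 and 7, 1.98 in scaf1+/+ B and 5.04 in scaf1+/+ C. The spread in the shallow scaf1+/+ C was wide (quartiles 1.11 and 11.8), with 24 of the 162 at or below 1 CPM. The double diet fish gave 5.37, 4.10, 2.58 and 2.97 in scaf1-/- 2, 3, 6 and 7, and 1.94, 3.71 and 3.30 in scaf1+/+ 2, 3 and 4. All 7 were above the scaf1+/+ 6 and 7 values, scaf1+/+ 2 included, although for the lower set the ratio of 1.39 in scaf1+/+ 2 was nearer to theirs than to those of the other 6.

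**Figure D5:**
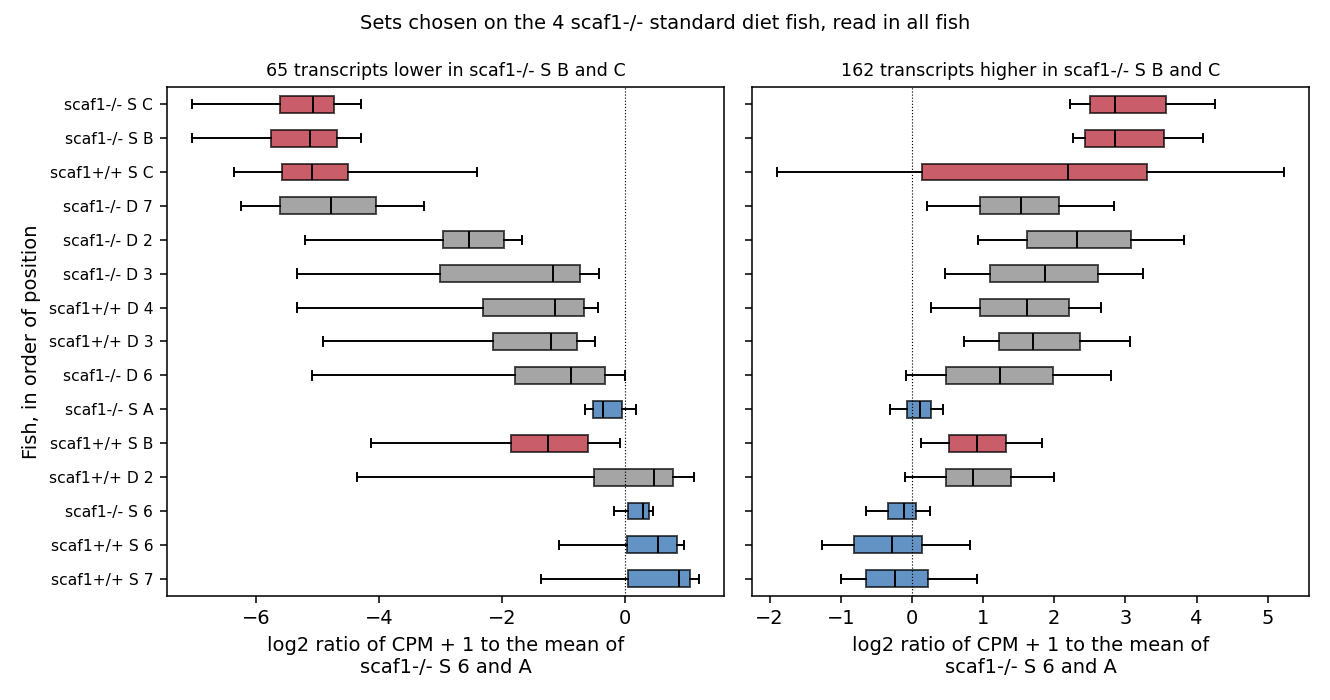
Log2 ratio of CPM + 1 to the mean of scaf1-/- 6 and A (horizontal axis) in each of 15 fish in order of position (vertical axis, S standard and D double diet), for the 65 transcripts lower (left) and the 162 higher (right) in scaf1-/- B and C; boxes are quartiles with the median, whiskers reach the 10th and 90th percentiles of the transcripts. Red boxes are marks B and C, blue marks 6, 7 and A, grey the double diet; the median CPM ratio of the lower set is 0.399 in scaf1+/+ B, 0 in scaf1+/+ C and 0.0102 in scaf1-/- double diet 7.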

How the data were processed

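Muscle RNA of 15 fish was sequenced on an Illumina HiSeq 2500. The authors aligned reads with kallisto 0.45.0 to zebrafish cDNA of Ensembl release 94 and checked them with FastQC 0.11.8; the deposited values are estimated counts for 57775 transcripts, beside transcript lengths in bases. Expected counts were rounded. Each fish was grouped by the genotype, diet and mark of its title. Transcripts were kept by edgeR's filter with a smallest count of 10 (26970), and levels are log2(CPM + 1) after TMM scaling over the 15 fish. Tests used edgeR 4.0.16 (robust quasi-likelihood, adjusted p under 0.05, log2 fold change over 1), with DESeq2 1.42.0, limma 3.58.1 on log2(TPM + 1), other scalings, no filter and omitted fish as alternatives, and exact permutation over fish, in R 4.3.3. The edgeR fits, and limma on log2(CPM + 1), were tried on simulated counts, while DESeq2 and limma on log2(TPM + 1) were not.

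The mark sets and lists were chosen with earlier results of these data known. Transcripts to be named had a mean of at least 20 CPM over the 8 standard diet fish, no overlap of the sets and the 12 largest differences in each direction, followed by the 5 most abundant and those that best followed the position; with no gene names, only the first 2 in each direction are named, and the planned gene lists and tissue markers were not used. The deviations of same-marked scaf1-/- and scaf1+/+ fish from their genotype means correlated at r = 0.53 for mark 6, 0.17 for B and 0.46 for C, which includes the difference of the mark sets; unlike marks of 1 set correlated as much (0.62 for scaf1-/- 6 with scaf1+/+ 7, 0.45 for scaf1-/- B with scaf1+/+ C). On the double diet r was -0.18 for mark 2 and -0.25 for mark 3. Only the standard diet marks met the limit of 0.1, and the block fit was made on that ground alone. Among the transcripts tested, 218 shared their length and all counts with another, 11 of them in the higher and 26 in the lower list.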

Additional observations from a re-analysis of the deposited data

Results flagged for a closer look

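In 6 of 42 sets of values, 1 fish lay farther from its group than Dixon's limit, used here only as a flag. Chance passes it in about 1 of 20 groups, a rate that does not hold where the group or list was chosen on these fish. What sets these fish apart was not tested. Within the B and C set, scaf1+/+ B was the distant fish in 3 measures, given as description since these fish chose the set. Its position was 0.35 beside 0.97 to 1.01, each on its own lists and scale. The 100 most abundant transcripts held 54.3% of its counts beside 64.6% to 66.7%. The lower list, chosen on these same fish, held 4.25% of its counts beside 0.484% to 0.797%. Among scaf1+/+ standard diet fish, scaf1+/+ C had 15655 transcripts with a count beside 33493 to 35766. Among double diet fish, scaf1+/+ 2 had 15.1% of its counts in the lower list beside 1.26% to 5.87%. Among scaf1-/- double diet fish, replicate 2 had a total of 15453700 counts beside 13359550 to 13540460.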

How the results depend on the processing

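Counts of transcripts in this section are out of 26970 tested, or 46875 without the filter. By DESeq2 they are out of 30516 for the mark sets, 26881 for genotype and 25064 for the difference between genotypes. The number of transcripts apart between the mark sets was 5261 in the main setting. It was 8933 in TPM, 5557 with median-ratio factors, 5228 without the filter and 6385 with a pseudocount of 0.1. With 1 fish left out it ran from 5245 to 8672. The edgeR count of 0 between the mark sets was 1451 with median-ratio factors, 1097 without the filter and 8055 by DESeq2. By limma on log2(TPM + 1) it was 10599, with 115 higher and 10484 lower in B and C. It was 5571 with all 15 fish in the fit, and 0 to 5251 with 1 fish left out. For genotype, 0 became 227 by DESeq2 and 1 with all 15 fish, and stayed 0 in every omission of a fish. For the difference of the mark set effect between genotypes, 0 became 244 by DESeq2, 1 with all 15 fish and 15 with the replicate block, and ran from 0 to 2750 with 1 fish left out. With the replicate block in place of the mark set, the genotype count remained 0, with 451 at an unadjusted p under 0.05; no block could be fitted for the mark sets, since a mark fixes its set. The difference of position by genotype in double diet fish stayed above 0, from 0.15 to 0.38 with 1 fish left out (exact permutation p from 0.1 to 0.3), and the correlation of the list means ran from -0.99 to -0.68. The log2 difference of ENSDART00000131131.4 was 10.41 with a pseudocount of 0.1, beside 7.11, and that of ENSDART00000135912.3 was 7.93 with that pseudocount and 2.96 in TPM, beside 5.09. The stricter sets, taken with at least 10 CPM as an alternative chosen after seeing the data, moved each of 18 median ratios by less than its spread. The causes of these changes were not tested. Depth limits values at 0 in scaf1+/+ C most, where 3 counts are 1.31 CPM.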
